A study of Arabidopsis thaliana with 12 samples.

Results

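The response of wild-type Arabidopsis thaliana seedlings to warmth was read from the accession Col-0, as the 3 libraries labelled Col-0 28 set against the 3 labelled Col-0 22, which are 6 of the 12 libraries of the series. The members are all genes that passed a filter on low counts, 17841 of the 33655 features in the deposited count table. The other 6 libraries are of spaQ, a line named for the SPA genes whose alleles the labels do not give, at the same temperatures, and they entered the model and the comparison of the genotypes. Whole seedlings, 6 days old by the labels, were used in all groups. Seeds of both genotypes were stratified in the cold and dark for 3 days on MS medium without sucrose and then grown for 5 days at 22 °C under white light of 25 µmol per m2 and s. Seedlings were then held at 22 °C or at 28 °C, and the labels give the length of this treatment as 4 h in the sample protocols and as 24 h in the text for the series, so the time at 28 °C is not settled here. The protocol text is the same for all samples and names only 22 °C for this last step, so the groups at 28 °C rest on the titles and the temperature field of the samples. The labels do not say whether replicates came from separate sowings, so p-values measure the spread between these samples only.

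Warmth below the range of heat injury makes Arabidopsis seedlings elongate their hypocotyls and lift their leaves, a growth response called thermomorphogenesis. The basic helix-loop-helix factor PIF4 drives it through auxin, and phytochrome B and the evening complex of the circadian clock (ELF3, ELF4 and LUX) hold PIF4 back at cooler temperatures. Stronger warming also engages heat shock factors, which bind repeats of the bases GAA and TTC upstream of chaperone genes. COP1 and its SPA partners form a ubiquitin ligase that removes light-signalling factors such as HY5.

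The RNA was read by 3′ Tag-Seq, which takes reads near the 3′ end of each transcript, and levels are given as CPM, the reads of a gene relative to the sequencing depth of its library after scaling with TMM factors. A level does not depend on transcript length in this assay, but levels are compared here only within a gene. The Col-0 libraries held 3380738 to 4544840 reads (22 °C) and 3382922 to 9390725 reads (28 °C) assigned to genes. Pairs of replicates gave a chi-square per degree of freedom of 5.74 to 7.31 at 28 °C and of 1.47 to 2.14 at 22 °C. This value grows with depth as well as with the spread between replicates. Replicates 1 and 3 at 28 °C were deeper than every library at 22 °C, so the contrast does not measure the spread alone. Replicate 2 at 28 °C, with 3382922 reads, was not deeper, and its pairs gave 7.09 and 5.74. Each of these pairs also holds a deeper library, and the part of depth was not tested. Replicate 2 at 28 °C stood apart from the other libraries at 28 °C in some gene groups: it was the lowest of the 3 for 15 of 15 small heat shock proteins, 19 of 20 light-harvesting antenna genes and 26 of 32 photosystem and electron transport genes, and the highest for 23 of 26 jasmonate genes and 16 of 18 salicylate genes, where over all tested genes it was the lowest for 36.6% and the highest for 36.1%. Markers of several organs were read as a check of the tissue. Shoot markers of the meristem and epidermis summed to 746 to 768 CPM at 22 °C and 627 to 733 CPM at 28 °C, and stomatal markers to 97.0 to 99.8 and 71.3 to 85.4 CPM, both without overlap, while vascular markers summed to 193 to 209 and 197 to 217 CPM. A lack of overlap was common, since it held for 59.5% of all tested genes. Of the tested shoot markers, 1 of 8 for the meristem and epidermis was called higher and none lower, and of 8 for stomata 1 was called higher and 3 lower, or 1 lower in DESeq2's Wald test, with library totals and without replicate 1, 2 or 3 at 22 °C or replicate 2 or 3 at 28 °C.

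Most tested root markers fell with warmth in the same libraries. The 10 root hair markers summed to 79.8 to 89.5 CPM in the 3 libraries at 22 °C, with none of them at 0 counts, and to 7.78 to 11.9 CPM at 28 °C, with 1 to 4 of them at 0. The 10 endodermis markers summed to 161 to 179 CPM and 71.4 to 83.1 CPM, and the root tip markers to 20.5 to 31.2 CPM and 6.65 to 10.5 CPM. Of the tested root markers, 7 of 8 for root hairs, 8 of 9 for the endodermis and 2 of 2 for the root tip were called lower at 28 °C and none was called higher. The root hair marker not called was RBOHC (log2 fold change 0.31), with 17, 22 and 20 counts at 22 °C and 60, 27 and 62 at 28 °C. It held the most counts of the 10 root hair markers in each library at 28 °C. LRX2 and WOX5, with 4 to 9 and 3 to 12 counts per Col-0 library, were not tested. The 2 calls of the root tip were both lost without replicate 1 or 2 at either temperature, and 1 was lost without replicate 3 at either. In a sample of whole seedlings, fewer cells of a type and less RNA per cell cannot be told apart. Where genes below are known from roots, these values move with them and their part in the result was not tested. Seed storage and embryo genes summed to 0.446 to 1.201 CPM at 22 °C, with 8 of 10 at 0 counts in each library, and to 4.86 to 23.1 CPM at 28 °C, with 5 to 7 at 0. The single tested member, the albumin gene SESA2, named here after its values were seen, had 3, 0 and 0 counts at 22 °C and 240, 15 and 30 counts at 28 °C and was called higher, at least 10.96-fold, with replicate 1 far above the others.

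**Figure D1:**
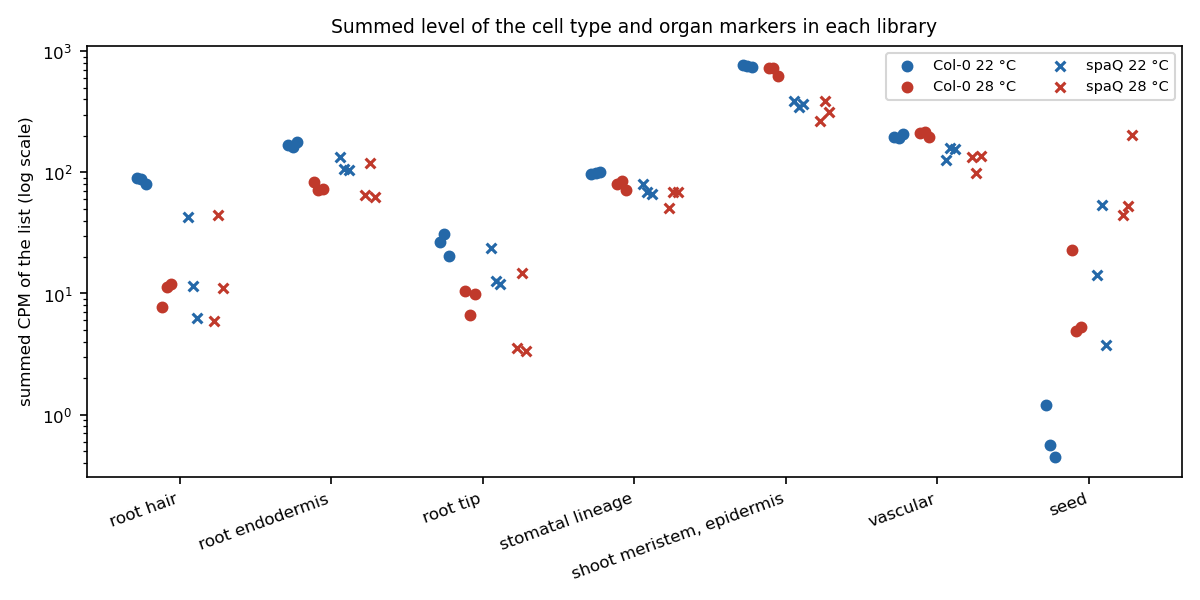
Summed CPM (log scale) of each list of cell type or organ markers, one point per library, for Col-0 (discs) and spaQ (crosses) at 22 °C (blue) and 28 °C (red). In Col-0 the root hair, endodermis and root tip sums at 28 °C lie below all libraries at 22 °C, as do the stomatal and the meristem and epidermis sums by a smaller margin, while vascular sums overlap and seed sums lie higher.

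Between 28 °C and 22 °C, 7283 of the 17841 tested genes (40.8%) differed in Col-0 at a Benjamini-Hochberg adjusted p under 0.05 in edgeR's quasi-likelihood test. Of these, 3375 (18.9% of the tested genes) were higher and 3908 (21.9%) lower at 28 °C, and these shares are the background against which the counts of each gene group are read. A change of at least 1 on the log2 scale, which is a doubling or more, was called for 1777 genes that rose (9.96%) and 1455 that fell (8.16%). The median log2 fold change of all tested genes was −0.02, with an interdecile range of −0.91 to 1.07. The 3 libraries at 28 °C did not overlap the 3 at 22 °C for 10612 genes (59.5%). The split of the calls depends on the scaling: with library totals in place of TMM factors the median of all genes moved by 0.21 to 0.19, and 68.3% of the calls were higher, against 46.3%. The split also turned with TMM factors kept. Higher calls were 51.8% with the 6 Col-0 libraries alone, 53.6% without the low-count filter and 52.9% without spaQ 28 °C replicate 2. They were 51.9% and 52.1% without replicate 1 or 2 at 22 °C, and 45.8% to 48.0% in the other settings.

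**Figure D2:**
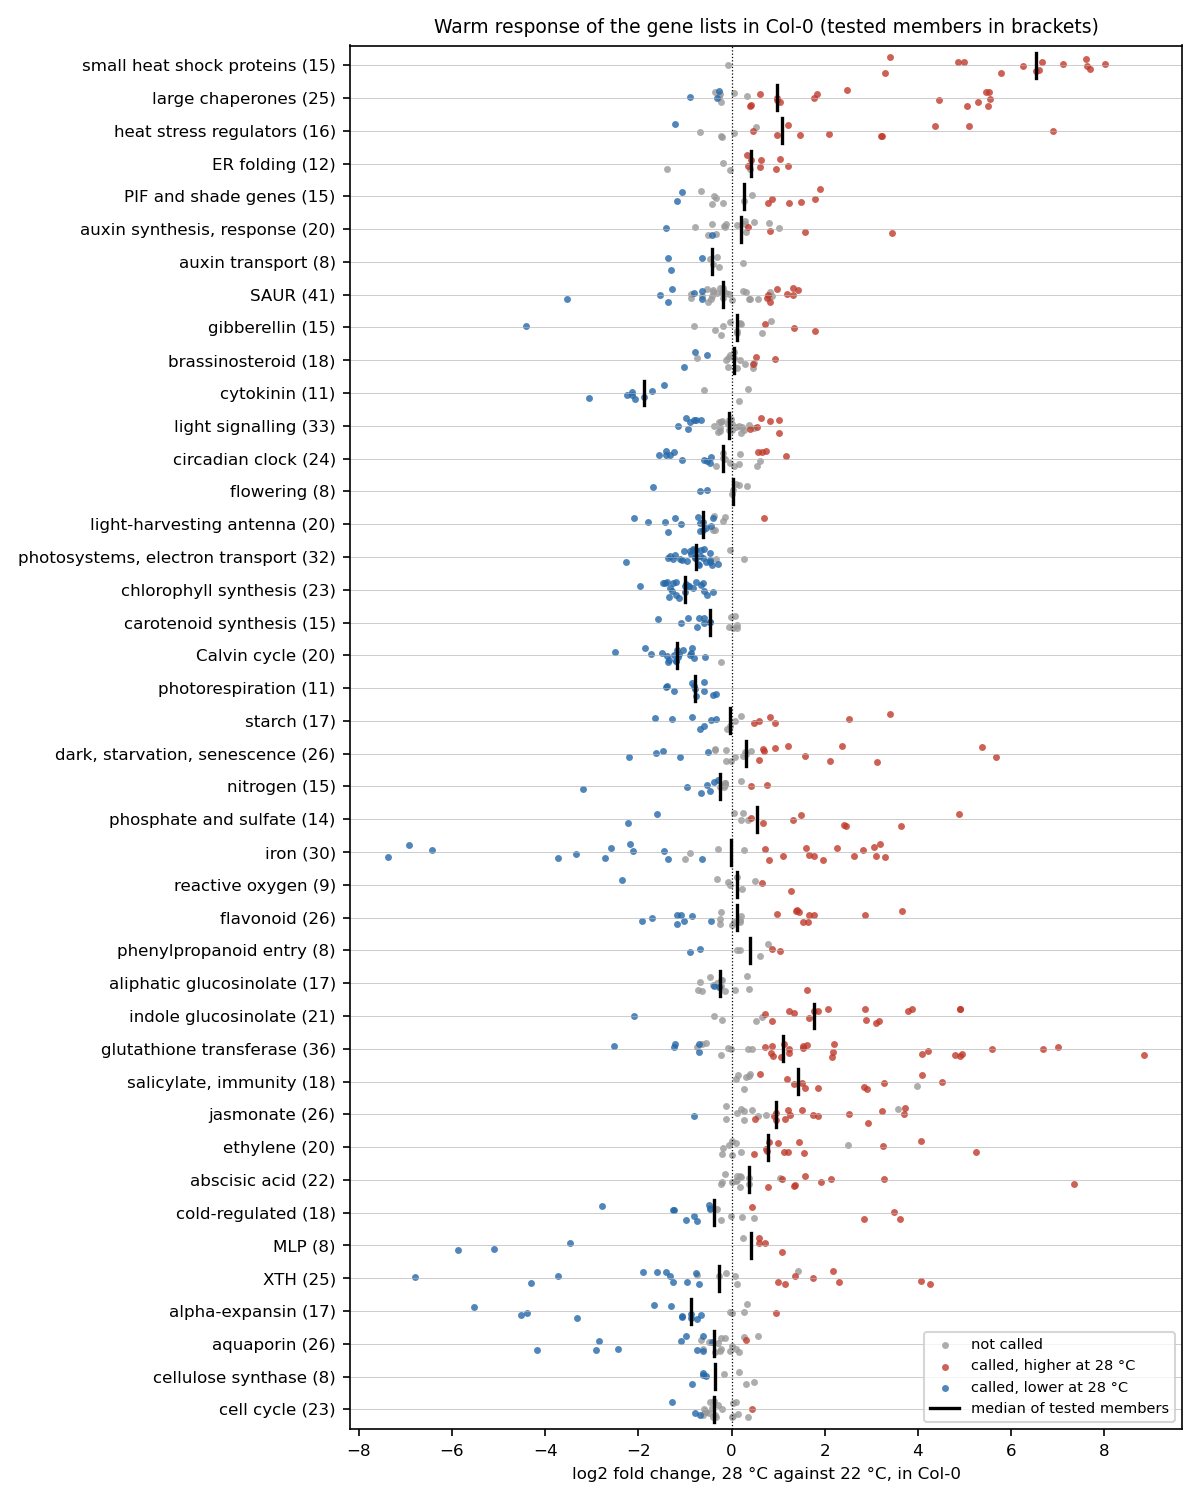
Log2 fold change of 28 °C against 22 °C in Col-0 for each tested member of 42 gene lists, with members called higher in red, called lower in blue and not called in grey, and a black bar at the median of each list. Small heat shock proteins lie farthest to the right, Calvin cycle and chlorophyll synthesis genes all lie to the left of 0, and iron and XTH genes are spread over both sides.

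Of genes whose mean reached 10 CPM in a Col-0 group and whose libraries did not overlap between temperatures, the 10 highest fold changes belonged to genes at or near 0 counts at 22 °C. Their folds are given as bounds, the mean at 28 °C over 3 counts in the smallest library at 22 °C. Single libraries at 28 °C can lie below such a bound. GLIP1 (AT5G40990), a secreted lipase of the GDSL family known in defence, gave 0, 0 and 0 CPM at 22 °C and 36.5, 45.2 and 59.1 CPM at 28 °C, at least 52.1-fold higher. AT1G53540, a small heat shock protein, gave 0, 0.839 and 0.224 CPM at 22 °C and 139, 19.0 and 134 CPM at 28 °C, at least 108-fold higher. The others were the glutathione transferase GSTU3 (AT2G29470) at least 14.4-fold higher, AT4G37290 at least 34.2-fold, AT1G55230 at least 32.5-fold, the P-loop nucleoside triphosphate hydrolase AT1G72660 at least 18.6-fold, AT5G51465 at least 15.71-fold, the alpha/beta hydrolase AT4G16820 at least 13.2-fold, the aspartyl protease AT1G44130 at least 11.6-fold and the RNA gene AT1G55525 at least 11.5-fold. Replicate 2 carried most of the level of AT1G55525, with 3.35, 24.4 and 3.23 CPM at 28 °C, and without it the bound was 3.65-fold and the mean fell under the 10 CPM of the naming rule. AT5G51465 had a bound of 10.3-fold without replicate 2 at 28 °C, and AT1G55230 one of 21.4-fold without replicate 3. The bound of AT1G53540 was 84.7-fold without replicate 1 and 87.6-fold without replicate 3, and replicate 2 was far below both. For AT1G55525 the call was lost when single Col-0 libraries were left out in turn, with a largest adjusted p of 0.070. It was lost in 4 of these 6 fits. For genes below, the same wording means a loss in 1 or more of the 6 fits. AT1G72660, AT5G51465 and AT1G44130 overlap another annotated gene, and their counts are uncertain without a stated strand setting.

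The 10 lowest included 2 genes of iron uptake or iron deficiency. IRT1 (AT4G19690), the main iron transporter of the root surface, was at 85.6, 67.4 and 72.0 CPM at 22 °C and 0.465, 0.257 and 0.461 CPM at 28 °C, with a log2 fold change of −7.37 ± 0.92 (SE) and an adjusted p of 8.1e-05. In the same form, values in brackets after a gene are its log2 fold change ± SE and the adjusted p of edgeR's test, from 3 libraries per group. CYP82C4 (AT4G31940), a P450 of the iron deficiency response, was at least 22.04-fold lower, and AGP30 (AT2G33790), an arabinogalactan protein, at least 24.2-fold lower. The remainder were AT5G54370 at least 25.2-fold lower, the cysteine protease AT1G29090 at least 24.2-fold, the myrosinase-binding-like gene MLP-300B (AT3G16440) at least 18.4-fold, the lectin AT1G52060 at least 16.3-fold, the invertase or pectin methylesterase inhibitor AT5G04960 at least 15.8-fold, the lipid-transfer-like AT5G46890 at least 13.6-fold, and a second lipid-transfer-like gene, AT4G12510, with a log2 fold change of −6.23. In all 20 genes the 3 libraries at 28 °C lay on the same side of the 3 at 22 °C, which the rule for naming them required. CYP82C4, AT5G46890 and AT4G12510 share 50 bases of the transcript end with another gene, so that reads may have been split between copies.

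Small heat shock proteins, which hold unfolding proteins in solution, had the highest median of the 42 lists of pathways and families: 14 of the 15 tested members were higher at 28 °C, none was lower, and the median log2 fold change was 6.53, or 5.96 with the 3 genes near 0 at 22 °C set to their bounds. The upstream sequences of 4 heat genes that rose from low levels are printed because heat shock factors act there. Each is the 250 bases before the annotated gene start in RefSeq's TAIR10.1, 5′ to 3′ on the gene's strand, with matches to the heat shock element GAANNTTCNNGAA, searched on both strands, in capitals.
HSP17.4 (chr3:16984868-16985117, TAIR10.1, minus strand): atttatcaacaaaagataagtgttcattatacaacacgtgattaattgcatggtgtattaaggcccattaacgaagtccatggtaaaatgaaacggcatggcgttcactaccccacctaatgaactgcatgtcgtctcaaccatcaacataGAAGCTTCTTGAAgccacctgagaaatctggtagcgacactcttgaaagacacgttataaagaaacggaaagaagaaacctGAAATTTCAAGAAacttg
AT1G53540 (chr1:19980049-19980298, TAIR10.1, plus strand): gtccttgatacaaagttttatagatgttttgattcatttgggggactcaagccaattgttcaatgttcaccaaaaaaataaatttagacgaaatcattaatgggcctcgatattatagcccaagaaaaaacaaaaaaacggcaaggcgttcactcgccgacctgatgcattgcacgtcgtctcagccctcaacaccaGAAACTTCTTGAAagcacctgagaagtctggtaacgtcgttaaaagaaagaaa
HSFA2 (chr2:11135374-11135623, TAIR10.1, plus strand): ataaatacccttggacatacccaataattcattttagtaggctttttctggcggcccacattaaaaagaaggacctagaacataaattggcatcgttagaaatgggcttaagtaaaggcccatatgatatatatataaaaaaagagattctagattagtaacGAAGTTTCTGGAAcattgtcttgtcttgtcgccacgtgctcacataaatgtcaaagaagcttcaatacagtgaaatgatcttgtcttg
HSP21 (chr4:13819972-13820221, TAIR10.1, minus strand): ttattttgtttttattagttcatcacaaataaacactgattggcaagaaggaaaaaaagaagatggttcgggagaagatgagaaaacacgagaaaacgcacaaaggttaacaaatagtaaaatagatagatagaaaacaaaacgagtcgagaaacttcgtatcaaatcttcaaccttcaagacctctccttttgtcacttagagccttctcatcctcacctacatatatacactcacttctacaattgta

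The element occurred in the upstream 250 bases of 106 of 27443 protein-coding genes (0.386%). It occurred in 2 of 15 small heat shock protein genes (13.3%), in 0 of 25 genes of larger chaperones and in 5 of 19 heat stress regulators (26.3%). Those 2 small heat shock protein genes, HSP17.4 and AT1G53540, are both among the 4 printed, so the printed genes do not stand for the lists. HSP22.0, which also rose from near 0 counts, had no match. HSP17.4 carried 2 matches, beginning 99 and 18 bases before the gene start, AT1G53540 carried 1 at 53 bases and HSFA2 1 at 88 bases, while HSP21 had no match to these letters in this window. A match describes the sequence and is not a measured binding site, and the build of the counts is not given, so genes were joined by locus tag only.

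HSP17.4 (AT3G46230) gave 4.22, 2.52 and 2.46 CPM at 22 °C and 858, 123 and 792 CPM at 28 °C (7.61 ± 1.32, adjusted p = 6.7e-04). HSP22.0 (AT4G10250), targeted to the endoplasmic reticulum, gave 0, 0.559 and 0.224 CPM at 22 °C and 62.6, 13.9 and 91.8 CPM at 28 °C, at least 62.3-fold higher. HSP21 (AT4G27670), the small heat shock protein of chloroplasts, was listed at 0 counts in all 3 libraries at 22 °C, against 4.09, 3.08 and 9.10 CPM at 28 °C, at least 6.02-fold higher. All 3 libraries at 28 °C lay above all at 22 °C for these genes, and replicate 2 was the lowest at 28 °C for each. The member that did not pass, AT4G21870, had a log2 fold change of −0.07 ± 0.30, adjusted p = 0.88. HSP17.4 overlaps another annotated gene, and the count is uncertain without a stated strand setting.

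Larger chaperones and their partners rose as a group with exceptions. Of 25 tested members 16 were higher and 3 lower at 28 °C, with a median log2 fold change of 0.97. The cytosolic chaperone HSP90.1 (AT5G52640) gave 14.2, 15.38 and 12.8 CPM at 22 °C and 681, 393 and 909.9 CPM at 28 °C, a 47.0-fold rise (5.55 ± 0.65, adjusted p = 5.9e-05). HSP101 (AT1G74310), which pulls proteins out of aggregates, gave 6.63, 4.75 and 6.26 CPM at 22 °C and 325, 82.7 and 366 CPM at 28 °C (5.45 ± 0.92, adjusted p = 5.5e-04). The co-chaperone HOP3 (AT4G12400), which links HSP70 to HSP90, rose 45.9-fold and Hsp70b (AT1G16030) rose 45.2-fold. HSP70-4 (AT3G12580), named HSP70 in RefSeq, gave 17.2, 19.3 and 17.5 CPM at 22 °C and 658, 370.0 and 754 CPM at 28 °C, a 33.0-fold rise. In each of these genes the libraries at 28 °C lay above those at 22 °C, again with replicate 2 lowest. A few members were lower: the plastid chaperone cpHsc70-2 (AT5G49910) went from 316, 302 and 291 to 155, 169 and 164 CPM (−0.90 ± 0.10, adjusted p = 5.0e-05), and HSP70-1 (AT5G02500) from 1714, 1729 and 1743 to 1466, 1317 and 1393 CPM (−0.31 ± 0.10, adjusted p = 0.027). The heat shock factor binding protein HSBP (AT4G15802) had a log2 fold change of −0.28 ± 0.09, adjusted p = 0.025. For HSP70-1 and HSBP the call was lost when single Col-0 libraries were left out in turn, with largest adjusted p of 0.14 and 0.17 in that order. HSP70-1 and HSBP were not called with library totals (adjusted p = 0.48 and 0.61). HSP101, HOP3 and cpHsc70-2 overlap another annotated gene, and their counts are uncertain without a stated strand setting.

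Of 16 tested regulators of the heat stress response, 10 rose and 1 fell, with a median of 1.09. HSFA2 (AT2G26150), the heat shock factor that prolongs the response, gave 0.302, 0.559 and 0 CPM at 22 °C and 36.2, 12.1 and 53.7 CPM at 28 °C, at least 37.7-fold higher. The transcriptional coactivator MBF1C (AT3G24500) gave 9.95, 8.39 and 11.6 CPM at 22 °C and 368, 222 and 439 CPM at 28 °C (5.09 ± 0.54, adjusted p = 3.4e-05). GOLS1 (AT2G47180), which makes galactinol for raffinose sugars, gave 3.92, 3.35 and 3.80 CPM at 22 °C and 72.2, 51.9 and 104 CPM at 28 °C (4.37 ± 0.37, adjusted p = 1.0e-05). The libraries of the 2 temperatures did not overlap for any of the 3. HSFC1 (AT3G24520) was lower, with 12.1, 11.7 and 11.9 to 6.23, 6.68 and 2.88 CPM (−1.21 ± 0.44, adjusted p = 0.044). HSFA6B, HSFA7B and APX2 had too few counts to be tested, at 4 to 14, 0 to 1 and 0 to 46 counts per Col-0 library. For HSFC1 the call was lost with each of the 6 Col-0 libraries left out in turn, with a largest adjusted p of 0.17. HSFC1 was not called with library totals (adjusted p = 0.090). MBF1C, GOLS1 and HSFC1 overlap another annotated gene, and their counts are uncertain without a stated strand setting.

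Folding in the endoplasmic reticulum moved by less. Of 12 genes 8 rose and none fell, with a median log2 fold change of 0.41. The 3 highest were the membrane-bound transcription factors BZIP28 (AT3G10800, 1.21 ± 0.19, adjusted p = 2.8e-04) and BZIP60 (AT1G42990), whose messenger is spliced by IRE1 (1.04 ± 0.23, adjusted p = 0.0028), and the co-chaperone ERDJ3B (AT3G62600, 0.95 ± 0.17, adjusted p = 7.7e-04). BIP3 (AT1G09080), the stress-induced BiP, was lower in level at 28 °C but was not called, with 6.63, 6.43 and 8.05 CPM at 22 °C and 1.86, 3.597 and 3.11 CPM at 28 °C (−1.38 ± 0.55, adjusted p = 0.061). Without replicate 2 or replicate 3 at 28 °C 5 of these 12 genes were called higher.

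**Figure D3:**
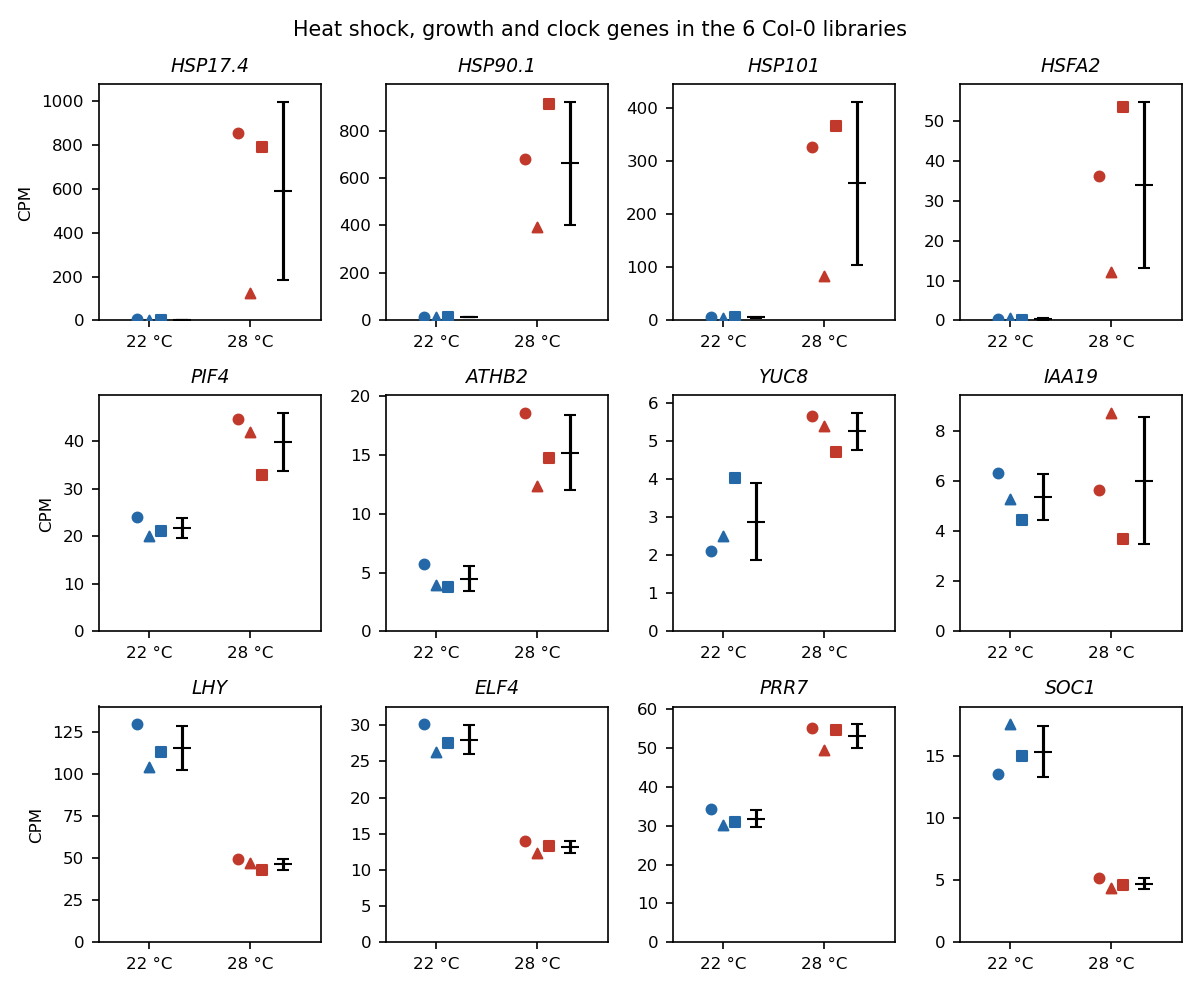
CPM (linear axis from 0) of 12 genes in the 3 Col-0 libraries at 22 °C (blue) and the 3 at 28 °C (red); discs, triangles and squares are replicates 1, 2 and 3, and the bar beside them is the mean with its SD (n = 3). Heat genes are near 0 at 22 °C and lowest in replicate 2 at 28 °C, PIF4 and ATHB2 are separated between the temperatures, and IAA19 overlaps.

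Growth regulators around PIF4 rose in part. Of 15 tested genes of this list 6 rose and 2 fell, with a median log2 fold change of 0.27, and PIL1, PRE1, PRE5, HEC2 and ATHB4 had too few counts to be tested. PIF4 (AT2G43010) gave 24.1, 20.1 and 21.0 CPM at 22 °C and 44.6, 41.9 and 32.9 CPM at 28 °C (0.87 ± 0.19, adjusted p = 0.0033), and its close relative PIF5 (AT3G59060) gave 26.8, 35.2 and 25.5 CPM at 22 °C and 53.3, 46.5 and 51.0 CPM at 28 °C (0.79 ± 0.17, adjusted p = 0.0028). PIF3 (AT1G09530) gave 12.1, 10.9 and 14.3 CPM at 22 °C and 46.8, 56.0 and 38.4 CPM at 28 °C, a 3.74-fold rise (1.90 ± 0.18, adjusted p = 2.1e-05). The libraries of the temperatures did not overlap for any of these 3 factors. PIF7 (AT5G61270), which also acts in warmth, did not pass the test, with 20.2, 19.0 and 16.8 CPM at 22 °C and 13.8, 13.1 and 14.4 CPM at 28 °C (−0.43 ± 0.20, adjusted p = 0.11). The shade-induced homeobox gene ATHB2 (AT4G16780) gave 5.73, 3.91 and 3.80 CPM at 22 °C and 18.6, 12.3 and 14.7 CPM at 28 °C (1.80 ± 0.27, adjusted p = 2.5e-04), and HFR1 (AT1G02340), which binds PIF proteins and keeps them off DNA, gave 3.32, 2.52 and 3.58 CPM at 22 °C and 11.2, 9.51 and 6.22 CPM at 28 °C (1.5 ± 0.26, adjusted p = 6.8e-04). PAR2 (AT3G58850), another helix-loop-helix gene without DNA binding of its own, fell (−1.18 ± 0.20, adjusted p = 5.4e-04), as did UNE10 (AT4G00050), also called PIF8 (−1.06 ± 0.14, adjusted p = 1.4e-04). PIF7 overlaps another annotated gene, and the count is uncertain without a stated strand setting.

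Auxin genes gave few calls. Of 20 tested genes of auxin synthesis and response 4 rose and 2 fell, with a median of 0.20, and the count of risers was 1 without replicate 1 at 22 °C or replicate 2 at 28 °C. These calls made up 30.0% of the tested members, below the 40.8% of all tested genes. YUC8 (AT4G28720), the flavin monooxygenase through which PIF4 raises auxin, gave 2.11, 2.52 and 4.03 CPM at 22 °C and 5.67, 5.40 and 4.72 CPM at 28 °C (0.83 ± 0.27, adjusted p = 0.026), without overlap of the libraries. The auxin-induced repressors IAA29 (AT4G32280) and IAA19 (AT3G15540) did not pass, with 0.603, 3.63 and 1.34 CPM at 22 °C and 4.37, 4.37 and 2.76 CPM at 28 °C for the first (1.02 ± 0.50, adjusted p = 0.13) and 6.33, 5.31 and 4.47 CPM at 22 °C and 5.67, 8.74 and 3.69 CPM at 28 °C for the second (0.11 ± 0.68, adjusted p = 0.91). GH3.3 (AT2G23170), which conjugates auxin to amino acids, gave 6.03, 7.55 and 5.15 CPM at 22 °C and 29.2, 115 and 63.8 CPM at 28 °C (3.45 ± 1.17, adjusted p = 0.031), with replicate 2 far above the others at 28 °C, and GH3.5 (AT4G27260) had a log2 fold change of 1.57 ± 0.35, adjusted p = 0.0031. IAA3 (AT1G04240) fell (−1.4 ± 0.26, adjusted p = 0.0011). Of 8 auxin carriers 3 fell and none rose: LAX3 (AT1G77690, −1.36 ± 0.20, adjusted p = 2.3e-04), the root carrier PIN2 (AT5G57090, −1.3 ± 0.46, adjusted p = 0.037) and AUX1 (AT2G38120, −0.64 ± 0.18, adjusted p = 0.013). PIN2 is one of the root tip markers above. Without replicate 1 or replicate 2 at 22 °C 1 carrier was called lower. For YUC8, GH3.3, PIN2 and AUX1 the call was lost when single Col-0 libraries were left out in turn, with largest adjusted p of 0.086, 0.099, 0.16 and 0.060 in that order. PIN2 and AUX1 were not called with library totals (adjusted p = 0.072 and 0.084). YUC8 was not called in DESeq2's Wald test (adjusted p = 0.076). IAA3 overlaps another annotated gene, and the count is uncertain without a stated strand setting.

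Of the SAUR family, small auxin-up RNAs that promote cell expansion, 41 of 80 members were tested and 8 rose and 7 fell, with a median log2 fold change of −0.18 that turned to 0.04 with library totals. The called share of 36.6% was near the 40.8% of all tested genes, so the family did not stand out. The highest were SAUR22 (AT5G18050, 1.43), SAUR30 (AT5G53590, 1.33) and SAUR1 (AT4G34770, 1.31), and the lowest SAUR37 (AT4G31320, −3.54 ± 0.72, adjusted p = 0.0019), SAUR49 (AT4G34750, −1.54) and SAUR4 (AT4G34800, −1.35). Without replicate 3 at 22 °C or replicate 1 at 28 °C 4 members were called higher. SAUR19 and SAUR23, known warm-induced members, had 1 to 26 and 5 to 43 counts per Col-0 library and were not tested. Brassinosteroid genes gave 3 risers and 3 fallers among 18, led by the helix-loop-helix gene BEE3 (AT1G73830, 0.94 ± 0.17, adjusted p = 0.0011) and, in the other direction, the brassinosteroid-inactivating P450 SOB7 (AT1G17060, −1.02 ± 0.33, adjusted p = 0.025), and the synthesis gene CPD (AT5G05690) did not pass (0.30 ± 0.22, adjusted p = 0.30). Fallers in this list numbered 0 without replicate 1 at 22 °C, and risers 1 without replicate 3 at 22 °C. Its called share of 33.3% was also below that of all tested genes. For SAUR22, SAUR30 and SOB7 the call was lost when single Col-0 libraries were left out in turn, with largest adjusted p of 0.25, 0.15 and 0.19 in that order. SOB7 was not called with library totals (adjusted p = 0.063). SAUR22 was not called in DESeq2's Wald test (adjusted p = 0.11). SOB7 and CPD overlap another annotated gene, and their counts are uncertain without a stated strand setting.

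Gibberellin genes gave 3 risers and 1 faller among 15 tested, a called share of 26.7% against 40.8% of all tested genes. GA3OX2 (AT1G80340), which makes bioactive gibberellin, gave 7.54, 8.39 and 7.16 CPM at 22 °C and 0.558, 0 and 0.230 CPM at 28 °C (−4.41 ± 0.59, adjusted p = 1.3e-04), without overlap, while its relative GA3OX1 (AT1G15550) did not pass (0.20 ± 0.32, adjusted p = 0.65). GA20OX1 had 0 to 7 counts per library and was not tested. The inactivating oxidase GA2OX6 (AT1G02400, 1.79 ± 0.42, adjusted p = 0.0049) and the receptors GID1B (AT3G63010, 1.33 ± 0.20, adjusted p = 2.7e-04) and GID1C (AT5G27320, 0.73 ± 0.20, adjusted p = 0.012) rose. Of the single Col-0 libraries left out in turn, only replicate 3 at 22 °C ended the call of GID1C, with an adjusted p of 0.062.

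Cytokinin genes fell together: 8 of 11 tested were lower, none was higher, and the median log2 fold change was −1.87. The 3 lowest were response regulators of the type that cytokinin induces. ARR6 (AT5G62920) gave 13.6, 10.1 and 8.50 CPM at 22 °C and 1.67, 1.03 and 0.922 CPM at 28 °C (−3.05 ± 0.60, adjusted p = 0.0016), ARR7 (AT1G19050) had a log2 fold change of −2.24 ± 0.30, adjusted p = 1.3e-04, and ARR5 (AT3G48100) one of −2.13 ± 0.39, adjusted p = 9.3e-04. The libraries of the temperatures did not overlap for the 3 genes. Of 23 cell cycle genes 3 fell and 1 rose, with a median of −0.38: the cyclin CYCB1;4 (AT2G26760, −1.27 ± 0.29, adjusted p = 0.0042), the replication clamp PCNA1 (AT1G07370, −0.78 ± 0.16, adjusted p = 0.0023) and the kinase AUR1 (AT4G32830, −0.67 ± 0.20, adjusted p = 0.017) fell and CYCD3;3 (AT3G50070) rose (0.43 ± 0.16, adjusted p = 0.047). CYCB1;1 (AT4G37490) was not called (−0.29 ± 0.31, adjusted p = 0.49). The called share of the cell cycle list was below the 40.8% of all tested genes. For AUR1 and CYCD3;3 the call was lost when single Col-0 libraries were left out in turn, with largest adjusted p of 0.086 and 0.13 in that order. AUR1 was not called with library totals (adjusted p = 0.091). CYCD3;3 was not called in DESeq2's Wald test (adjusted p = 0.094). ARR6 and AUR1 overlap another annotated gene, and their counts are uncertain without a stated strand setting.

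Light signalling genes were near the background. Of 33 tested members 6 rose and 7 fell, and the median log2 fold change of −0.04 turned to 0.17 with library totals. Without replicate 2 at 22 °C 3 members were called higher. HY5 (AT5G11260), the light-signalling factor that COP1 removes, gave 24.7, 30.2 and 24.6 CPM at 22 °C and 27.0, 26.2 and 26.2 CPM at 28 °C (0.00 ± 0.14, adjusted p = 0.999), with overlapping libraries. COP1 (AT2G32950, −0.25 ± 0.11, adjusted p = 0.080) and the phytochrome gene PHYB (AT2G18790, −0.08 ± 0.18, adjusted p = 0.76) did not pass either. The HY5 homolog HYH (AT3G17609) fell (−1.15 ± 0.12, adjusted p = 2.8e-05), as did RUP2 (AT5G23730), which damps UV-B signalling (−0.97 ± 0.21, adjusted p = 0.0028), and the B-box gene BBX19 (AT4G38960, −0.94 ± 0.32, adjusted p = 0.030). The B-box genes BBX30 (AT4G15248, 1.02 ± 0.26, adjusted p = 0.0069) and BBX31 (AT3G21890, 1.01 ± 0.27, adjusted p = 0.0090) and the phytochrome gene PHYD (AT4G16250, 0.82 ± 0.26, adjusted p = 0.022) rose. Of the SPA genes, SPA3 (AT3G15354) fell (−0.81 ± 0.16, adjusted p = 0.0019) and SPA1 (AT2G46340, −0.04), SPA2 (AT4G11110, 0.09) and SPA4 (AT1G53090, −0.28) did not pass. For BBX19 and PHYD the call was lost when single Col-0 libraries were left out in turn, with largest adjusted p of 0.11 and 0.075. For BBX19 that held with each of the 6 left out. BBX19 was not called with library totals (adjusted p = 0.084). SPA3 and SPA4 overlap another annotated gene, and their counts are uncertain without a stated strand setting.

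Clock genes moved in both directions, with 4 of 24 higher and 10 lower at 28 °C, and their median of −0.18 turned to 0.04 with library totals. The morning gene LHY (AT1G01060) gave 129.7, 104 and 113 CPM at 22 °C and 49.3, 47.0 and 43.0 CPM at 28 °C (−1.32 ± 0.12, adjusted p = 1.6e-05) and its partner CCA1 (AT2G46830) gave 73.9, 72.1 and 70.5 CPM at 22 °C and 49.7, 49.3 and 45.2 CPM at 28 °C (−0.59 ± 0.14, adjusted p = 0.0055). ELF4 (AT2G40080) of the evening complex gave 30.2, 26.3 and 27.5 CPM at 22 °C and 14.0, 12.3 and 13.2 CPM at 28 °C (−1.07 ± 0.13, adjusted p = 7.8e-05). The libraries did not overlap in any of the 3 genes. ELF3 (AT2G25930) also fell (−0.52 ± 0.15, adjusted p = 0.012), and LUX (AT3G46640) did not pass (−0.04 ± 0.15, adjusted p = 0.85). The evening repressor TOC1 (AT5G61380) fell (−0.45 ± 0.12, adjusted p = 0.0074). The pseudo-response regulator PRR7 (AT5G02810) rose, with 34.4, 30.2 and 30.9 CPM at 22 °C and 55.0, 49.3 and 54.5 CPM at 28 °C (0.74 ± 0.14, adjusted p = 0.0010), PRR9 (AT2G46790) did not pass (0.56 ± 0.46, adjusted p = 0.36), and GI (AT1G22770), which stabilises the photoreceptor ZTL, rose from 11.2, 8.67 and 9.17 to 13.5, 17.73 and 15.2 CPM (0.66 ± 0.17, adjusted p = 0.0073). The largest rise was that of LNK1 (AT5G64170), a coactivator of clock genes (1.16 ± 0.13, adjusted p = 5.2e-05), and the largest falls those of the LHY relatives RVE2 (AT5G37260, −1.55 ± 0.21, adjusted p = 1.3e-04) and RVE1 (AT5G17300, −1.41 ± 0.17, adjusted p = 7.1e-05) and of the blue light receptor FKF1 (AT1G68050, −1.41 ± 0.30, adjusted p = 0.0027). The evening element AAAATATCT, through which CCA1 and LHY act, was found on either strand in the upstream 250 bases of 6 of the 24 clock genes (25.0%) and of 648 of all 27443 (2.36%). Of the single Col-0 libraries left out in turn, only replicate 1 at 22 °C ended the calls of ELF3 and TOC1. Their adjusted p was then 0.12 and 0.057. CCA1, ELF3 and TOC1 were not called with library totals (adjusted p = 0.050, 0.10 and 0.094). ELF3, LUX, LNK1, RVE1 and FKF1 overlap another annotated gene, and their counts are uncertain without a stated strand setting. PRR9 and FKF1 share 50 bases of the transcript end with another gene, so that reads may have been split between copies.

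Of 8 tested flowering genes 3 fell and none rose, a called share of 37.5% against 40.8% of all tested genes. SOC1 (AT2G45660), which integrates flowering signals, gave 13.6, 17.61 and 15.0 CPM at 22 °C and 5.20, 4.37 and 4.61 CPM at 28 °C (−1.68 ± 0.21, adjusted p = 8.0e-05), and the flowering repressors FLM (AT1G77080, −0.67 ± 0.12, adjusted p = 7.6e-04) and FLC (AT5G10140, −0.54 ± 0.15, adjusted p = 0.014) were lower as well. FT, the mobile flowering signal, had 1 to 5 counts per Col-0 library and was not tested. For FLC the call was lost when single Col-0 libraries were left out in turn, with a largest adjusted p of 0.11. FLC was not called with library totals (adjusted p = 0.094). FLC overlaps another annotated gene, and the count is uncertain without a stated strand setting.

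Photosynthesis genes of the nucleus fell across the chloroplast. The counts lower at 28 °C were 14 of 20 for the light-harvesting antenna, 29 of 32 for the photosystems and electron transport, 23 of 23 for chlorophyll synthesis, 9 of 15 for carotenoid synthesis, 19 of 20 for the Calvin cycle and 11 of 11 for photorespiration. A single member of these lists was called higher, in the antenna. The medians ran from −0.46 for carotenoids to −1.18 for the Calvin cycle, and each stayed below 0 with library totals. Without replicate 1 or 2 at either temperature, left out in turn, 9 antenna genes were called lower.

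The Rubisco small subunit gene RBCS1A (AT1G67090) gave 21492, 19217 and 19921 CPM at 22 °C and 8074, 7171 and 8009 CPM at 28 °C (−1.38 ± 0.16, adjusted p = 5.4e-05), and RBCS1B (AT5G38430) gave 1387, 1358 and 1079 CPM at 22 °C and 229, 185 and 261 CPM at 28 °C (−2.50 ± 0.21, adjusted p = 1.0e-05). The stromal dehydrogenase GAPA2 (AT1G12900, −1.85 ± 0.17, adjusted p = 1.5e-05) and EMB3119 (AT3G04790), the ribose phosphate isomerase of the cycle (−1.73 ± 0.17, adjusted p = 2.6e-05), followed. Libraries of the 2 temperatures did not overlap for these 4 genes. FD2 (AT1G60950), the leaf ferredoxin that takes electrons from photosystem I, gave 3535, 3359 and 3588 CPM at 22 °C and 659, 628 and 890.1 CPM at 28 °C (−2.27 ± 0.25, adjusted p = 3.8e-05), and PSBTN (AT3G21055) of photosystem II (−1.37 ± 0.15, adjusted p = 4.2e-05) and the Rieske protein gene PETC (AT4G03280, −1.31 ± 0.13, adjusted p = 2.1e-05) were next. HEMA1 (AT1G58290), which commits glutamate to tetrapyrroles, gave 363, 334 and 360.0 CPM at 22 °C and 73.4, 92.2 and 106 CPM at 28 °C (−1.96 ± 0.17, adjusted p = 1.2e-05), with CHLI2 (AT5G45930) of the magnesium chelatase (−1.48 ± 0.23, adjusted p = 2.7e-04) and HEME1 (AT3G14930, −1.42 ± 0.16, adjusted p = 4.6e-05) after it. EMB3119, CHLI2 and HEME1 overlap another annotated gene, and their counts are uncertain without a stated strand setting. RBCS1B shares 50 bases of the transcript end with another gene, so that reads may have been split between copies.

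Antenna genes differed among themselves. LHCB1.1 (AT1G29920) gave 3594, 3355 and 2829 CPM at 22 °C and 1279, 1133 and 1371 CPM at 28 °C (−1.37 ± 0.17, adjusted p = 9.2e-05) and LHCB1.4 (AT2G34430) gave 1821, 1742 and 1647 CPM at 22 °C and 433, 303 and 476 CPM at 28 °C (−2.1 ± 0.41, adjusted p = 0.0015). LHCB1.5 (AT2G34420) rose, with 2225, 2045 and 1785 CPM at 22 °C and 3433, 2959 and 3408 CPM at 28 °C (0.69 ± 0.18, adjusted p = 0.0086), also without overlap of the libraries. LHCB2.3 (AT3G27690, −1.78 ± 0.31, adjusted p = 6.5e-04) and LHCB1.3 (AT1G29930, −1.42 ± 0.20, adjusted p = 1.9e-04) fell. LHCB1.5, LHCB2.3 and LHCB1.3 overlap another annotated gene, and their counts are uncertain without a stated strand setting. LHCB1.4, LHCB1.5 and LHCB1.3 share 50 bases of the transcript end with another gene, so that reads may have been split between copies.

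Photorespiration fell with GLDP2 (AT2G26080) of glycine decarboxylase (−1.4 ± 0.15, adjusted p = 3.6e-05), the T protein gene AT1G11860 (−1.39 ± 0.13, adjusted p = 1.7e-05) and the aminotransferase gene AGT1 (AT2G13360, −1.24 ± 0.11, adjusted p = 1.2e-05) at its low end. In the carotenoid list NPQ1 (AT1G08550), the violaxanthin de-epoxidase of heat dissipation in strong light, gave 103, 112 and 107 CPM at 22 °C and 40.6, 31.9 and 34.1 CPM at 28 °C (−1.58 ± 0.16, adjusted p = 3.0e-05), and LUT1 (AT3G53130, −1.082 ± 0.20, adjusted p = 0.0011) and phytoene synthase, PSY (AT5G17230, −0.94 ± 0.09, adjusted p = 2.4e-05), were also lower. The early light-induced gene ELIP2 (AT4G14690) gave 62.7, 63.5 and 73.6 CPM at 22 °C and 5.76, 4.62 and 4.61 CPM at 28 °C (−3.71 ± 0.14, adjusted p = 3.0e-08), without overlap, and its homolog ELIP1 (AT3G22840) gave 28.6, 33.0 and 23.49 CPM at 22 °C and 24.9, 11.05 and 26.7 CPM at 28 °C and did not pass (−0.40 ± 0.26, adjusted p = 0.24). NPQ1, LUT1 and PSY overlap another annotated gene, and their counts are uncertain without a stated strand setting. LUT1 shares 50 bases of the transcript end with another gene, so that reads may have been split between copies.

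**Figure D4:**
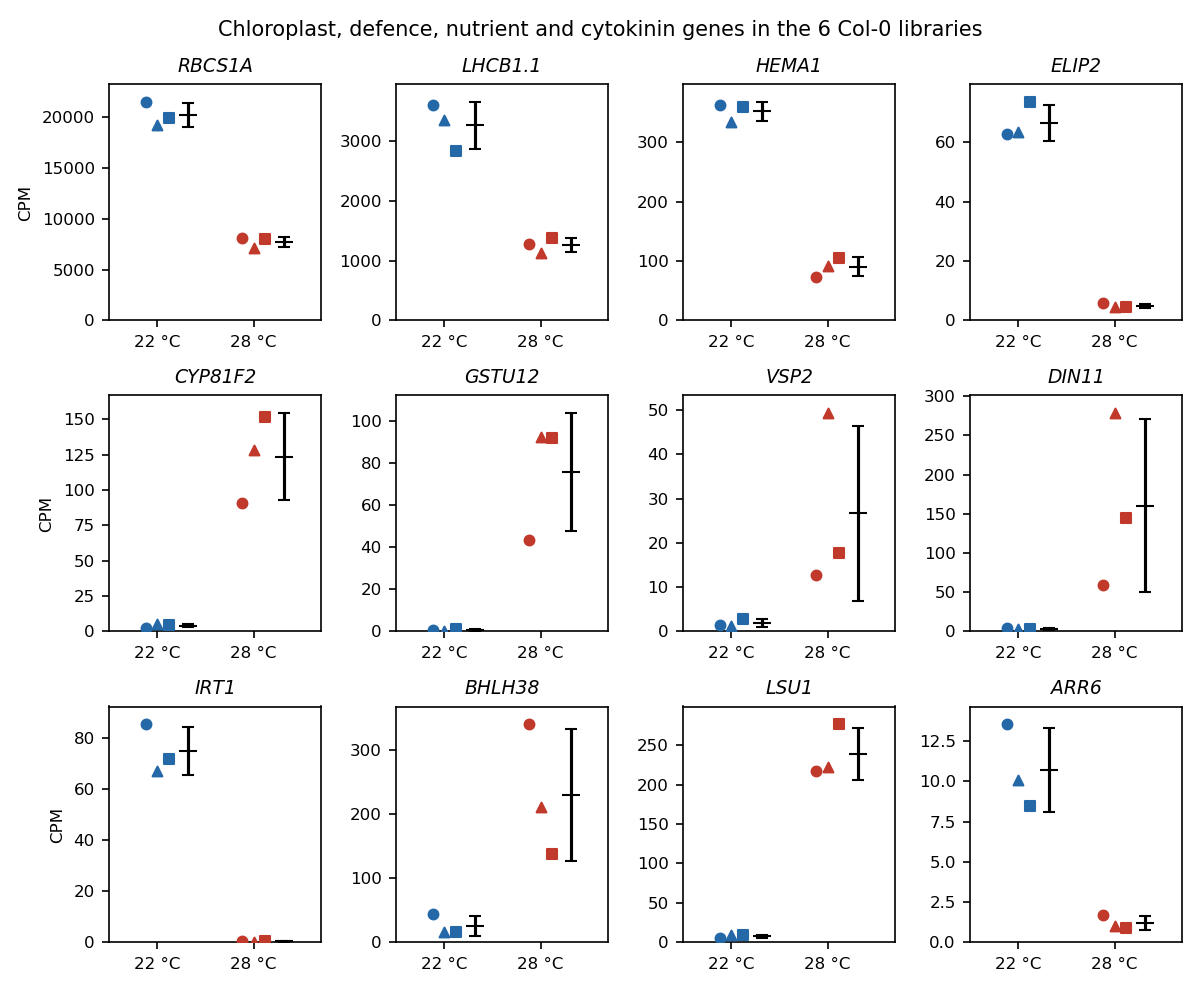
CPM (linear axis from 0) of 12 genes in the Col-0 libraries at 22 °C (blue) and 28 °C (red), with discs, triangles and squares for replicates 1, 2 and 3 and the mean with its SD (n = 3) beside them. The chloroplast genes of the top row are lower in all 3 libraries at 28 °C, CYP81F2, GSTU12, VSP2 and DIN11 are higher, and IRT1 is near 0 at 28 °C while BHLH38 is higher.

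Genes of darkness, starvation and senescence split. Of 26 tested 11 rose and 5 fell. DIN11 (AT3G49620), a dioxygenase gene induced in darkness, gave 4.22, 2.80 and 2.46 CPM at 22 °C and 58.6, 279 and 144 CPM at 28 °C (5.67 ± 1.17, adjusted p = 0.0021), with replicate 2 highest at 28 °C. The senescence gene SAG13 (AT2G29350, 5.38 ± 0.85, adjusted p = 3.6e-04) and the beta-glucosidase gene DIN2 (AT3G60140, 3.12 ± 0.67, adjusted p = 0.0026) were next. DIN6 (AT3G47340), an asparagine synthetase gene that sugar represses, went the other way, with 133, 218 and 277 CPM at 22 °C and 82.6, 58.3 and 62.8 CPM at 28 °C (−1.62 ± 0.41, adjusted p = 0.0074), as did the dormancy-associated gene DRM2 (AT2G33830), with 329, 447 and 441 CPM at 22 °C and 86.1, 85.3 and 93.1 CPM at 28 °C (−2.2 ± 0.22, adjusted p = 2.3e-05), and BT2 (AT3G48360, −1.46 ± 0.16, adjusted p = 3.5e-05). Starch genes gave 6 risers and 7 fallers among 17, with a median of −0.04 that turned to 0.17 with library totals: the beta-amylase BAM5 (AT4G15210, 3.39 ± 0.52, adjusted p = 2.8e-04), the large subunit of ADP-glucose pyrophosphorylase APL3 (AT4G39210, 2.51 ± 0.38, adjusted p = 2.6e-04) and the starch synthase GBSS1 (AT1G32900, 0.94 ± 0.17, adjusted p = 9.9e-04) rose, and the plastid beta-amylase BAM3 (AT4G17090, −1.65 ± 0.13, adjusted p = 1.0e-05), the phosphoglucomutase PGM (AT5G51820, −1.27 ± 0.16, adjusted p = 8.3e-05) and the phosphorylase PHS2 (AT3G46970, −0.84 ± 0.11, adjusted p = 1.3e-04) fell. DIN6, BAM3 and PHS2 overlap another annotated gene, and their counts are uncertain without a stated strand setting.

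Flavonoid genes moved in both directions. Of 26 tested genes 10 rose and 8 fell, with a median of 0.12. Left out singly, libraries changed this to 6 risers without replicate 3 at 22 °C and to 4 fallers without replicate 3 at either temperature. The regulator PAP1 (AT1G56650), a MYB that turns on anthocyanin genes, gave 2.41, 2.52 and 1.79 CPM at 22 °C and 14.2, 21.1 and 14.3 CPM at 28 °C (2.86 ± 0.31, adjusted p = 3.8e-05), and its relative PAP2 (AT1G66390) was at least 5.39-fold higher. The anthocyanin acyltransferase gene AT1G03940 also rose (1.77 ± 0.37, adjusted p = 0.0021). Among genes that fell, flavonol synthase, FLS1 (AT5G08640), gave 81.4, 64.3 and 64.4 CPM at 22 °C and 16.6, 15.9 and 22.2 CPM at 28 °C (−1.93 ± 0.26, adjusted p = 1.3e-04), and the flavonol regulator MYB12 (AT2G47460) had a log2 fold change of −1.7 ± 0.52, adjusted p = 0.019. Chalcone synthase, CHS (AT5G13930), the entry step for flavonols and anthocyanins, gave 417, 410.1 and 377 CPM at 22 °C and 193, 189.9 and 152 CPM at 28 °C (−1.17 ± 0.24, adjusted p = 0.0018), and EGL3 (AT1G63650) fell (−1.17 ± 0.37, adjusted p = 0.023). In the phenylpropanoid steps ahead of it 2 of 8 genes rose, C4H (AT2G30490, 1.04 ± 0.25, adjusted p = 0.0059) and PAL4 (AT3G10340, 0.87 ± 0.32, adjusted p = 0.047), and 2 fell, 4CL3 (AT1G65060, −0.88 ± 0.17, adjusted p = 0.0016) and PAL3 (AT5G04230, −0.68 ± 0.14, adjusted p = 0.0024). For MYB12, EGL3 and PAL4 the call was lost when single Col-0 libraries were left out in turn, with largest adjusted p of 0.073, 0.13 and 0.14 in that order. EGL3 was not called with library totals (adjusted p = 0.054). AT1G03940 and CHS overlap another annotated gene, and their counts are uncertain without a stated strand setting. PAP2 shares 50 bases of the transcript end with another gene, so that reads may have been split between copies.

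Indole glucosinolates, sulfur-rich defence compounds made from tryptophan, rose as a list: 16 of 21 genes were higher and 1 lower, with a median log2 fold change of 1.78. CYP81F2 (AT5G57220), which modifies the indole ring for defence, gave 2.71, 5.03 and 4.47 CPM at 22 °C and 90.43, 128 and 152 CPM at 28 °C (4.90 ± 0.47, adjusted p = 2.1e-05). The regulator MYB122 (AT1G74080) was at least 12.4-fold higher, and the methyltransferase IGMT2 (AT1G21120), which acts after CYP81F2, had a log2 fold change of 3.88 ± 0.45, adjusted p = 5.4e-05. MYB34 (AT5G60890), a regulator known mainly from roots, did not pass (−0.21 ± 0.19, adjusted p = 0.40), and CYP81F3 (AT4G37400) fell (−2.09 ± 0.48, adjusted p = 0.0042). In the aliphatic branch, made from methionine, 1 of 17 genes was higher, SOT17 (AT1G18590, 1.62 ± 0.33, adjusted p = 0.0021), and 2 lower, the isopropylmalate isomerase IIL1 (AT4G13430, −0.27 ± 0.09, adjusted p = 0.036) and the glucosyltransferase AT2G31790 (−0.38 ± 0.14, adjusted p = 0.046); its regulator MYB28 (AT5G61420) did not pass (−0.31 ± 0.16, adjusted p = 0.13). With all libraries fitted, the called share of the aliphatic branch was below the 40.8% of all tested genes. The count lower in this branch was 10 without replicate 1 at 28 °C and 0 with any other Col-0 library left out. Replicate 1 was the highest of the 3 libraries at 28 °C for 14 of the 17 genes. For IIL1 and AT2G31790 the call was lost when single Col-0 libraries were left out in turn, with largest adjusted p of 0.20 and 0.17. For IIL1 that held with each of the 6 left out. IIL1 and AT2G31790 were not called with library totals (adjusted p = 0.65 and 0.36). AT2G31790 was not called in DESeq2's Wald test (adjusted p = 0.073). AT2G31790 overlaps another annotated gene, and the count is uncertain without a stated strand setting. IGMT2 shares 50 bases of the transcript end with another gene, so that reads may have been split between copies.

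Glutathione transferases, which conjugate reactive compounds to glutathione, gave 23 risers and 5 fallers among 36 tested, with a median of 1.1. GSTU12 (AT1G69920) gave 0.905, 0 and 1.12 CPM at 22 °C and 43.4, 92.2 and 91.7 CPM at 28 °C (6.69 ± 1.02, adjusted p = 2.8e-04). GSTU11 (AT1G69930) was at least 54.7-fold higher, and GSTU3 is given above. The 3 that fell most were GSTU26 (AT1G17190, −2.53 ± 0.34, adjusted p = 1.3e-04), GSTU28 (AT1G53680, −1.24 ± 0.44, adjusted p = 0.039) and GSTU20 (AT1G78370, −1.2 ± 0.23, adjusted p = 0.0015). Of 9 genes against reactive oxygen 2 rose, the dehydroascorbate reductase DHAR1 (AT1G19570, 1.29 ± 0.27, adjusted p = 0.0023) and the superoxide dismutase CSD3 (AT5G18100, 0.66 ± 0.14, adjusted p = 0.0030), and 1 fell: the chloroplast superoxide dismutase CSD2 (AT2G28190), with 195, 178 and 195 CPM at 22 °C and 33.2, 32.6 and 44.5 CPM at 28 °C (−2.36 ± 0.25, adjusted p = 3.6e-05). That is a called share of 33.3%, against 40.8% of all tested genes. For GSTU28 the call was lost when single Col-0 libraries were left out in turn, with a largest adjusted p of 0.20. GSTU28 was not called with library totals (adjusted p = 0.077). GSTU28 was not called in DESeq2's Wald test (adjusted p = 0.061). CSD3 overlaps another annotated gene, and the count is uncertain without a stated strand setting. DHAR1 shares 50 bases of the transcript end with another gene, so that reads may have been split between copies.

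Stress hormone genes rose. The count higher at 28 °C was 11 of 18 for salicylate and immunity (median 1.43), 15 of 26 for jasmonate (0.95), 12 of 20 for ethylene (0.78) and 9 of 22 for abscisic acid (0.37), and the single member of these lists called lower was the jasmonate repressor JAZ3 (AT3G17860, −0.81 ± 0.23, adjusted p = 0.014). Without replicate 2 at 28 °C, the highest library for most jasmonate and salicylate genes, 8 salicylate, 11 jasmonate, 11 ethylene and 7 abscisic acid genes were called higher. The storage protein gene VSP2 (AT5G24770), a jasmonate marker, gave 1.51, 1.12 and 2.91 CPM at 22 °C and 12.8, 49.3 and 17.74 CPM at 28 °C (3.71 ± 0.67, adjusted p = 9.0e-04), with replicate 2 highest. JAZ5 (AT1G17380), which jasmonate induces as feedback, was at least 10.8-fold higher, and CYP94B3 (AT3G48520), which inactivates jasmonoyl-isoleucine, had a log2 fold change of 3.24 ± 0.60, adjusted p = 0.0011. In the salicylate list FMO1 (AT1G19250), which makes the immune signal N-hydroxypipecolic acid, was at least 5.50-fold higher, DLO1 (AT4G10500), which breaks salicylate down, at least 11.1-fold, and the glutaredoxin gene GRX480 (AT1G28480) rose (3.26 ± 0.46, adjusted p = 1.6e-04). The salicylate synthesis gene ICS1 (AT1G74710) did not pass (0.40 ± 0.33, adjusted p = 0.37), and PR1 and PR2, markers of the salicylate response, had 0 to 3 and 0 to 17 counts per library and were not tested. For JAZ3, JAZ5 and FMO1 the call was lost when single Col-0 libraries were left out in turn, with largest adjusted p of 0.089, 0.082 and 0.056 in that order. JAZ3 was not called with library totals (adjusted p = 0.057).

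In the ethylene list the synthase gene ACS2 (AT1G01480) gave 1.51, 1.398 and 0.447 CPM at 22 °C and 13.1, 21.8 and 20.6 CPM at 28 °C (4.07 ± 0.91, adjusted p = 0.0035), ACS6 (AT4G11280) rose as well (3.24 ± 0.56, adjusted p = 6.8e-04) and the response factor ERF1 (AT3G23240) was at least 5.18-fold higher. In the abscisic acid list the phosphatase genes HAI2 (AT1G07430), at least 5.09-fold higher, and HAI1 (AT5G59220, 3.28 ± 0.55, adjusted p = 5.4e-04) and the synthesis gene NCED3 (AT3G14440, 2.14 ± 0.76, adjusted p = 0.039) were the 3 highest. Cold-regulated genes gave 4 risers and 8 fallers among 18, with a median of −0.39, and 3 fallers without replicate 2 at 22 °C. The zinc finger genes ZAT10 (AT1G27730, 3.61 ± 0.45, adjusted p = 8.1e-05) and ZAT12 (AT5G59820, 3.49 ± 0.56, adjusted p = 4.0e-04), which answer many stresses, and COR413IM1 (AT1G29395, 2.85 ± 0.34, adjusted p = 6.1e-05) rose. KIN1 (AT5G15960) gave 10.3, 16.2 and 15.0 CPM at 22 °C and 2.32, 2.57 and 1.27 CPM at 28 °C (−2.79 ± 0.39, adjusted p = 1.5e-04), and COR15B (AT2G42530, −1.26 ± 0.41, adjusted p = 0.026) and COR413PM1 (AT2G15970, −1.24 ± 0.23, adjusted p = 8.9e-04) fell, whereas COR15A (AT2G42540) did not pass (−0.22 ± 0.49, adjusted p = 0.76). CBF1, CBF2 and CBF3, the cold-induced regulators, had 0 to 2, 3 to 18 and 0 to 7 counts per library and were not tested. Their binding core CCGAC was found on either strand in the upstream 250 bases of 8 of 22 listed cold genes (36.4%) and of 3285 of all 27443 (12%). For NCED3 and COR15B the call was lost when single Col-0 libraries were left out in turn, with largest adjusted p of 0.14 and 0.12 in that order. COR15B was not called with library totals (adjusted p = 0.053). COR15B overlaps another annotated gene, and the count is uncertain without a stated strand setting. KIN1 shares 50 bases of the transcript end with another gene, so that reads may have been split between copies.

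Iron genes moved strongly in both directions, with 14 of 30 higher, 12 lower and a median of 0.00. IRT1, given above, and its regulator FIT (AT2G28160), named FRU in RefSeq, with 8.44, 6.43 and 5.37 CPM at 22 °C and 0.836, 0.514 and 0.461 CPM at 28 °C (−3.34 ± 0.51, adjusted p = 2.7e-04), fell, and the coumarin hydroxylase gene AT3G12900 was at least 4.23-fold lower. Regulators upstream in the pathway rose: the helix-loop-helix gene BHLH38 (AT3G56970) gave 44.3, 15.65 and 16.8 CPM at 22 °C and 341, 211 and 138 CPM at 28 °C (3.19 ± 0.39, adjusted p = 7.0e-05), and the iron-signalling peptide gene AT1G47395 gave 104, 48.1 and 40.7 CPM at 22 °C and 858, 655 and 379.8 CPM at 28 °C (3.3 ± 0.35, adjusted p = 3.4e-05), with its neighbour AT1G47400 alike (3.09 ± 0.36, adjusted p = 5.1e-05). Replicate 1 was the highest of the 3 libraries at 28 °C for 23 of the 30 iron genes. The uptake genes that fell are known from the root surface, and the root hair markers summed to 79.8 to 89.5 CPM at 22 °C and 7.78 to 11.9 CPM at 28 °C in the same libraries, whose part in the result was not tested. BHLH38 overlaps another annotated gene, and the count is uncertain without a stated strand setting.

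Among phosphate and sulfate genes 8 of 14 rose and 2 fell. The sulfur deficiency gene LSU1 (AT3G49580) gave 5.73, 9.23 and 8.95 CPM at 22 °C and 217, 223 and 277 CPM at 28 °C (4.89 ± 0.55, adjusted p = 4.6e-05), and SDI1 (AT5G48850), which holds glucosinolate synthesis back under sulfur shortage (3.65 ± 0.37, adjusted p = 2.5e-05), and the sulfate transporter SULTR1;2 (AT1G78000, 2.46 ± 0.35, adjusted p = 1.9e-04) rose with it. The phosphate exporter PHO1 (AT3G23430, −2.23 ± 0.21, adjusted p = 1.7e-05) and the transporter PHT1;1 (AT5G43350, −1.6 ± 0.51, adjusted p = 0.025) fell. Of 15 nitrogen genes 7 fell and 2 rose, and 3 fell without replicate 2 at 22 °C or replicate 1 at 28 °C: the ammonium transporter AMT1;3 (AT3G24300, −3.20 ± 0.37, adjusted p = 5.2e-05), the nitrite reductase NIR1 (AT2G15620, −0.95 ± 0.13, adjusted p = 1.7e-04) and the plastid glutamine synthetase GLN2 (AT5G35630, −0.65 ± 0.15, adjusted p = 0.0045) were the lowest, and the cytosolic glutamine synthetases GLN1;1 (AT5G37600, 0.75 ± 0.19, adjusted p = 0.0064) and GLN1;3 (AT3G17820, 0.42 ± 0.15, adjusted p = 0.041) rose. NRT2.1 had 0 to 3 counts per library and was not tested. For PHT1;1 and GLN1;3 the call was lost when single Col-0 libraries were left out in turn, with largest adjusted p of 0.090 and 0.11 in that order. PHT1;1 shares 50 bases of the transcript end with another gene, so that reads may have been split between copies.

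Many cell wall genes fell in the libraries in which the root markers were low. Of 17 tested alpha-expansins, which loosen walls, 12 fell and 1 rose, with a median of −0.87. EXPA17 (AT4G01630), EXPA7 (AT1G12560) and EXPA18 (AT1G62980) were at least 6.72-fold, 7.12-fold and 7.84-fold lower, and EXPA7 and EXPA18 are among the root hair markers; EXPA16 (AT3G55500) rose (0.94 ± 0.34, adjusted p = 0.043). Xyloglucan endotransglucosylases, which cut and rejoin wall polymers, gave 8 risers and 11 fallers among 25: XTH23 (AT4G25810, 4.27 ± 0.59, adjusted p = 1.5e-04), XTH29 (AT4G18990), at least 5.28-fold higher, and XTH18 (AT4G30280, 2.3 ± 0.43, adjusted p = 0.0010) rose most, and XTH12 (AT5G57530), at least 10.04-fold lower, XTH14 (AT4G25820, −4.31 ± 0.57, adjusted p = 1.1e-04) and XTH26 (AT4G28850, −3.73 ± 0.71, adjusted p = 0.0012) fell most. Of 26 aquaporins, channels for water and small solutes, 10 fell and 1 rose, and 5 to 7 fell with single libraries left out, fewest without replicate 1 at 22 °C. The list was led by TIP2;3 (AT5G47450, −4.18 ± 0.46, adjusted p = 4.1e-05), TIP4;1 (AT2G25810, −2.91 ± 0.68, adjusted p = 0.0046) and PIP2;4 (AT5G60660, −2.83 ± 0.26, adjusted p = 1.7e-05), with SIP1A (AT3G04090) the riser (0.31 ± 0.11, adjusted p = 0.042). Of 8 cellulose synthases 4 fell, with CESA5 (AT5G09870, −0.85 ± 0.14, adjusted p = 4.3e-04), CESA6 (AT5G64740, −0.61 ± 0.13, adjusted p = 0.0021) and CESA3 (AT5G05170, −0.60 ± 0.16, adjusted p = 0.011) lowest. In the major latex protein family MLP34 (AT1G70850) gave 134, 124 and 120.2 CPM at 22 °C and 1.95, 2.31 and 2.19 CPM at 28 °C (−5.88 ± 0.43, adjusted p = 5.2e-06), and MLP329 (AT2G01530, −5.10 ± 0.66, adjusted p = 1.0e-04) and MLP328 (AT2G01520, −3.46 ± 0.28, adjusted p = 1.0e-05) fell with it, while 4 of the 8 tested members rose. For all these wall and membrane families the root hair, endodermis and root tip sums fell in the same libraries, and their part was not tested. For EXPA16 and SIP1A the call was lost when single Col-0 libraries were left out in turn, with largest adjusted p of 0.17 and 0.15. The call of CESA3 was lost only without replicate 1 at 22 °C, with an adjusted p of 0.063. CESA3 was not called with library totals (adjusted p = 0.075). EXPA16 was not called in DESeq2's Wald test (adjusted p = 0.068). EXPA7, EXPA18 and CESA3 overlap another annotated gene, and their counts are uncertain without a stated strand setting. XTH26 shares 50 bases of the transcript end with another gene, so that reads may have been split between copies.

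The warm response of Col-0 was set against that of spaQ by the interaction, the response in spaQ minus that in Col-0, tested in the same model. It was called for 2117 of 17841 genes (11.9%), while 6.55% of the genes were called higher and 5.87% lower in spaQ itself. Groups did not share this difference equally. For small heat shock proteins it was called for 0 of 15 members, with medians of 6.53 in Col-0 and 5.32 in spaQ, and for large chaperones for 3 of 25. An interaction that misses the threshold does not show equal responses, and the fitted folds of the genes near 0 counts are uncertain.

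The difference was called for 19 of 20 Calvin cycle genes and 19 of 23 chlorophyll synthesis genes, each time with the spaQ value the higher, and the medians in spaQ were −0.32 and −0.30 against −1.18 and −1.0 in Col-0. For RBCS1A the interaction was 0.83 (adjusted p = 0.031) and for HEMA1 1.18 (0.0093). Indole glucosinolate genes differed in 13 of 21 cases, all with the spaQ value the lower, and their median was 0.00 in spaQ against 1.78. CYP81F2 had an interaction of −4.70 (0.0015). Of 36 glutathione transferases 14 differed, 13 of them with the lower value in spaQ, and of 26 flavonoid genes 11, all lower in spaQ. Of 30 iron genes 19 differed: IRT1 by 7.32 (0.0072) and BHLH38 by −2.0 (0.025). The root hair sums in spaQ ran from 6.24 to 42.7 CPM at 22 °C and from 5.93 to 44.9 CPM at 28 °C, so that the libraries of the 2 temperatures overlapped in spaQ. Pairs of spaQ libraries gave a chi-square per degree of freedom of 3.303 to 8.34 at 22 °C and of 5.84 to 24.8 at 28 °C, with the 2 highest values in the pairs that hold replicate 2 at 28 °C. Leaving that library out, the interaction was called for 1751 genes. Its count also hung on single Col-0 libraries, with 928, 885 and 1051 genes called without replicates 1, 2 and 3 at 22 °C and 1170 and 1273 without replicates 2 and 3 at 28 °C.

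**Figure D5:**
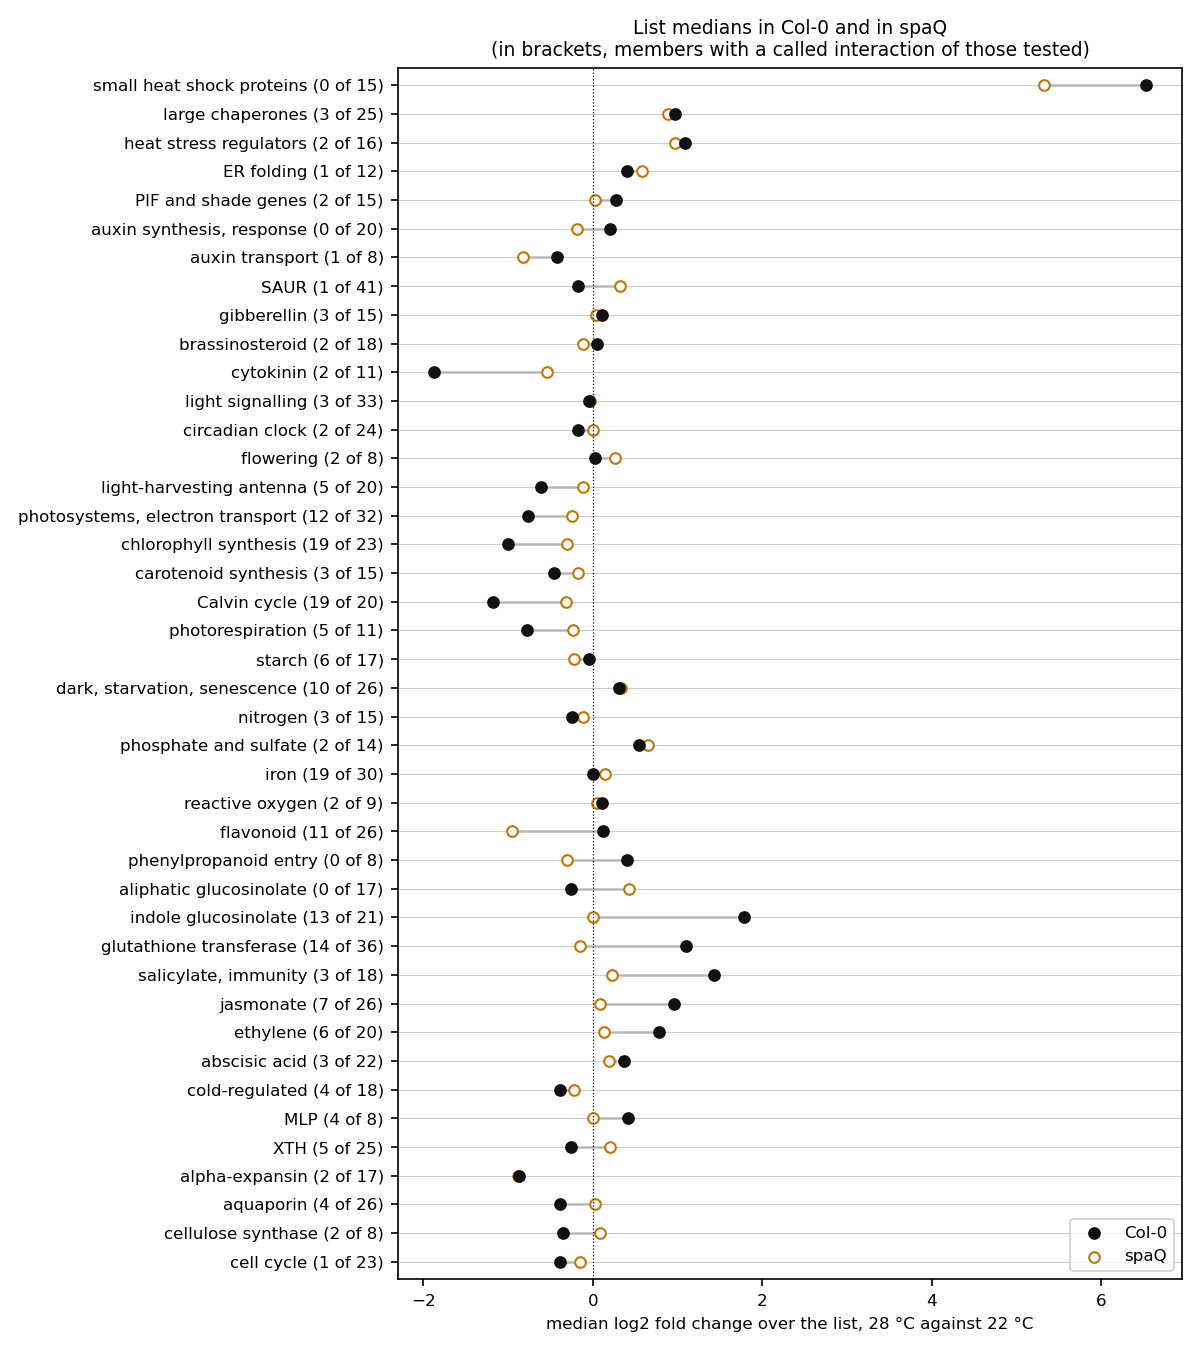
Median log2 fold change of 28 °C against 22 °C over each gene list in Col-0 (black) and in spaQ (open orange), with the number of members with a called interaction of those tested in brackets. Small heat shock proteins are high in both genotypes, while indole glucosinolate, glutathione transferase, Calvin cycle and chlorophyll synthesis medians lie nearer to 0 in spaQ.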

How the data were processed

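The authors deposited a table of raw read counts, with genes in rows and each library in its own column, neither normalised nor pooled. Reads came from 3′ Tag-Seq libraries of total RNA, per the labels' protocols, and FastQC, Bowtie2, TopHat, HTSeq and edgeR are named per the submitters' processing notes. The genome build, annotation, strand setting and removal of duplicate reads are not given in the sources used here. The 5 summary lines at the end of the table were left out, and the ambiguous line came to 0.455% to 0.620% of the gene counts of a library.

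All 12 libraries were fitted in edgeR 4.0.16 (R 4.3.3) with 1 coefficient per group, TMM factors (0.985 to 0.989 in Col-0 at 22 °C, 1.13 to 1.16 at 28 °C) and genes kept by filterByExpr. The contrasts were 28 °C minus 22 °C within each genotype and their difference, tested two-sided with glmQLFTest and Benjamini-Hochberg adjustment over all 17841 genes. The SE of a log2 fold change was taken from the estimate and its F statistic. The fit was tested on simulated data with few changed genes, as many raised as lowered. That test does not bear on how the split of the calls depends on the scaling. Where all libraries of a group had at most 3 counts, the fold is a bound against 3 counts in the smallest library of that group (0.901 CPM at 22 °C, 0.767 CPM at 28 °C). The mean of the other group was used for it, so the bound does not cover the spread between replicates. Bounds cover counting error only, since no molecular identifiers are described and reads may then be copies of 1 molecule.

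Genes and their 42 pathway and family lists, 7 marker lists and naming rule were chosen with earlier results of these data known. Named are the 10 highest and 10 lowest changes, the called members at the ends of each list (up to 3 a side), a set of well-known genes, SPA1 to SPA4 and the markers as lists. RefSeq's TAIR10.1 gave names, overlaps, transcript ends (50 bases shared within the last 500) and upstream sequences by locus tag, for 32548 of 33655 features. Replicate numbers were not treated as pairs, since same-numbered libraries did not deviate together (correlations across genes of 0.0015, −0.0072 and −0.00025). Alternatives were DESeq2 1.42.0 (size factors, Wald test), library totals, filters, the 6 Col-0 libraries alone, a replicate block and libraries left out.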

Additional observations from a re-analysis of the deposited data

Results flagged for a closer look

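The genes below were picked out because their warm response differed between the genotypes by the test of the difference itself, edgeR's interaction term at an adjusted p under 0.05. Of the 227 genes named with a tested value, 78 met this, against 11.9% of all tested genes, and the named genes were chosen for large changes in Col-0, so their share is no support. Each value is the log2 fold change of 28 °C against 22 °C in spaQ minus that in Col-0, and adjusted p-values ran from 0.0013 to 0.047. Values of genes near 0 counts in a group depend on the prior count of the fit. No explanation was tested.

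In 35 genes the value in spaQ was the lower. Among defence and detoxification genes the difference was −10.28 for GLIP1, −9.61 for GSTU3, −7.27 for GSTU12, −5.43 for MYB122, −4.70 for CYP81F2, −4.23 for IGMT2, −2.19 for GRX480 and −1.47 for DHAR1. In ethylene synthesis and response it was −4.80 for ERF1, −3.84 for ACS2 and −3.38 for ACS6, and in the stress-linked genes of the senescence and cold lists −6.62 for DIN11, −4.81 for SAG13, −3.28 for COR413IM1, −3.07 for ZAT10 and −2.83 for ZAT12. Anthocyanin genes gave −4.17 for PAP2, −2.72 for PAP1 and −2.57 for AT1G03940, iron regulators −2.21 for AT1G47395, −2.2 for AT1G47400 and −2.0 for BHLH38, and starch genes −2.40 for APL3, −1.51 for GBSS1 and −0.68 for PHS2. Growth and hormone genes gave −2.1 for PIF3, −1.48 for HFR1, −1.51 for BEE3 and −1.3 for GID1B, wall genes −3.66 for XTH29 and −2.88 for XTH23, and the folding regulator BZIP60 −1.35. Of the genes highest in Col-0 without a list, the difference was −8.80 for AT5G51465, −7.15 for AT4G37290 and −5.93 for AT1G72660.

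In 43 genes the value in spaQ was the higher, which can still be a fall in spaQ. ELIP2, for 1, had a log2 fold change of −2.26 in spaQ, with means of 1233 CPM at 22 °C and 257 CPM at 28 °C. For the chloroplast it was 2.29 for LHCB2.3, 2.0 for LHCB1.4, 1.77 for RBCS1B, 0.83 for RBCS1A, 1.2 for GAPA2, 0.91 for EMB3119, 1.39 for FD2 and 0.80 for PETC. Pigment and photoprotection genes gave 1.18 for HEMA1, 1.07 for CHLI2, 1.02 for HEME1, 0.45 for PSY, 0.87 for NPQ1 and 1.45 for ELIP2, and photorespiration genes 0.80 for AGT1, 0.80 for GLDP2 and 0.72 for AT1G11860. The plastid chaperone cpHsc70-2 differed by 1.12 and the superoxide dismutase CSD2 by 2.48. Sugar and nitrogen genes gave 3.38 for DIN6, 1.1 for DRM2, 1.51 for BT2, 0.93 for BAM3, 0.83 for NIR1 and 0.84 for GLN2, and light, clock and flowering genes 0.92 for HYH, 1.28 for RUP2, 1.19 for RVE1 and 1.23 for SOC1. Genes known from roots or wall growth gave 7.32 for IRT1, 1.90 for PHO1, 2.22 for PIP2;4, 6.64 for XTH12, 5.03 for XTH14, 0.73 for CESA6 and 1.05 for SAUR49. Other large differences were 9.13 for AT1G52060, 8.93 for AT5G04960, 8.46 for MLP329, 8.05 for AGP30, 7.47 for AT5G54370, 6.23 for MLP34 and 5.52 for MLP-300B. Root hair markers summed to 79.8 to 89.5 CPM in Col-0 at 22 °C and to at most 44.9 CPM in every other library, and their part in these differences was not tested.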

How the results depend on the processing

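The count of genes called in Col-0 was 7283 and stayed within 1.5 times of that in every setting run: 5765 to 6175 with each Col-0 library left out, 6655 in DESeq2's Wald test, 6688 with the replicate block and 8945 with the 6 Col-0 libraries alone. Changes of at least 1 on the log2 scale stayed within 1.5 times too. With library totals 5382 genes were called higher and 2503 lower, against 3375 and 3908, since that scaling moved the median of all genes by 0.21. Leaving out Col-0 libraries gave 2677 to 3017 genes higher and 2760 to 3275 lower. Without replicate 1 or 2 at 22 °C more genes were higher (3017 and 3005) than lower (2800 and 2760). The interaction, called for 2117 genes, was called for 1343 with the replicate block and for 885 to 1549 with single Col-0 libraries left out, where fewer samples were fitted, and for 1751 without spaQ 28 °C replicate 2. Of the replicate numbers, no pairing is stated by the labels and none was seen in the data, so the block is given here only. Of 248 genes that the naming rule picks, 228 were called and 197 kept their direction and side of the threshold in every setting that gave a value. The others lost or gained a call in at least 1 setting, most with a library left out (21 to 34 calls lost) or with library totals (24 calls lost), and none of the 248 reversed. Depth limits genes with few counts: 3 counts of a Col-0 library came to between 0.319 and 0.887 CPM of raw counts, and list members below the filter were not tested.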
